A study of Sus scrofa with 36 samples.

Results

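The transcripts of 10 antioxidant enzymes were followed in the liver of growing pigs: the glutathione peroxidases GPX1, GPX3 and GPX4, glutamate-cysteine ligase catalytic subunit GCLC, the superoxide dismutases SOD1 and SOD2, catalase CAT, peroxiredoxin PRDX1, thioredoxin TXN and heme oxygenase HMOX1. The genes were chosen by name, as well known enzymes that remove superoxide, peroxides and free heme or supply their reducing agents. The choice was made with earlier results of these data known. They were represented by 54 of the 60305 probes on the array, of which 53 were kept after dim probes were set aside, against 44796 probes kept in all. Each of the 53 probes was well above background on 36 of 36 arrays, so none entered through a single group. The dropped probe was a SOD2 probe that reads the opposite strand.

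Liver RNA from 36 castrated male pigs was hybridised to 36 arrays of 1 colour, 1 pig per array, from Large White (LW), Creole (CR) and their cross (Large White × Creole, called F1 here). In each breed 6 pigs were sampled in thermoneutral conditions (TN, 24 °C) and 6 under heat stress (HS), which gave 18 TN and 18 HS pigs and 12 pigs per breed. The HS pigs had spent up to 5 days in the heat, not the same number for each, for which the sample labels give 30 °C and the growth protocol in the same records 32 °C. HS pigs were slaughtered after the TN pigs, so that temperature and slaughter day cannot be told apart, and litters were spread over the groups without being named in the labels. The comparisons ask which of these transcripts differed between HS and TN, whether that difference varied by breed, and how the breeds differed.

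Superoxide dismutases turn superoxide, a by-product of respiration, into hydrogen peroxide, SOD1 mainly in the cytosol and SOD2 in the mitochondrial matrix. Hydrogen peroxide is then broken down by catalase in peroxisomes, by GPX1 with glutathione as the reducing agent, and by PRDX1, which is itself reduced by thioredoxin. GPX4 acts on lipid peroxides inside membranes, GPX3 is secreted into plasma, GCLC catalyses the rate-limiting step of glutathione synthesis, and HMOX1 opens the heme ring, a step that is prominent in the macrophages of liver and spleen that clear old red cells. The liver is rich in most of these enzymes because of its oxidative metabolism.

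Values were log2 signals after quantile normalisation, and a difference of 1 on this scale is a 2-fold change in signal. Probes of a gene are numbered from its brightest, probe 1, and the level of a probe says nothing about the level of another probe. The arrays were comparable in brightness, with a median signal of 70 to 92 against a median local background of 18 to 25 and 39644 to 44025 spots well above background. Hepatocyte markers, which define the labelled tissue, were present, with 7 of 8 listed genes measured and a summed linear signal that ran from 1737160 to 1991070. Along the first principal component (18.6% of the variance) 5 arrays lay apart from their breed, namely LW TN replicates 1 and 6, F1 HS replicates 1 and 2 and F1 TN replicate 3, and results that rest on them are also given without them. The arrays came from 5 slides, each of which held as many TN as HS pigs. Because whole tissue was used, fewer cells of a type and less RNA per cell cannot be told apart.

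The probes of a gene were not independent measurements. Among the 54 probes, each 60 bases long, 25 pairs overlapped in sequence, 3 of these pairs were identical and 2 read opposite strands. The sequences below, as deposited with the array values, are those that the results turn on. The GPX4 probes 2 and 3 cover the same stretch, with a capital for the base of probe 2 that probe 3 lacks, and probe 4 has the same 60 bases as probe 5.
GPX4 probe 2: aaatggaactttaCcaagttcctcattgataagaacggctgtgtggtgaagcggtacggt
GPX4 probe 3: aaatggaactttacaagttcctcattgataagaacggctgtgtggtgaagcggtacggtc
GPX4 probe 4: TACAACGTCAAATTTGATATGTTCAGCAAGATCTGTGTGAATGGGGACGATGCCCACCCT
The PRDX1 probe 1 is shown because both PRDX1 probes share most of their bases, here the 45 in capitals.
PRDX1 probe 1: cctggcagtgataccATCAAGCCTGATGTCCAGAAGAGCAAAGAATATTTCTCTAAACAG
The HMOX1 probe 3 gave the largest breed difference of the HMOX1 probes and overlapped none of them.
HMOX1 probe 3: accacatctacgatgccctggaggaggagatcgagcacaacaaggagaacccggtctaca
The TXN probes 1 and 5 are shown because the 59 bases in capitals are reverse complements, so that probe 5 reads the opposite strand.
TXN probe 1: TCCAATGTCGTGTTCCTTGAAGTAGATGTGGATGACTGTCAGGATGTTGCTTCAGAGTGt
TXN probe 5: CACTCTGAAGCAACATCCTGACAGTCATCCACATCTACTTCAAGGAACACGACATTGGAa
For SOD2, bases 31 to 60 of probe 8 and bases 27 to 56 of probe 1 are given. The capital in probe 8 marks the base that differs from the dropped opposite-strand probe (C52T, counted from the 5′ end of probe 8, against the reverse complement of that probe), and the capital in probe 1 the base that differs from the overlapping probe 5 (G41T, counted from the 5′ end of probe 1).
SOD2 probe 8: tgtagagagaaaataaagactCttgtgaaa
SOD2 probe 1: cctataaggtcctgGagagctttcatttaa

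Over the 36 arrays the brightest probes of CAT and SOD1 varied least, with an SD of 0.13 for each, and that of GPX3 varied most, with an SD of 0.57. The CAT probe 1 ran from 17.02 to 17.51 with a median of 17.32, and the SOD1 probe 1 from 16.41 to 17.03 with a median of 16.69. The GPX3 probe 1 ran from 13.66 to 15.78 with a median of 14.76. Between these, the SD over all arrays was 0.16 for TXN, 0.19 for GPX1, 0.20 for GPX4, 0.27 for SOD2, 0.31 for GCLC, 0.33 for HMOX1 and 0.36 for PRDX1. With the 6 groups of each gene put in order of their means, neighbours differed by more than the larger of their SDs in 2 places only, among the GPX4 means, where F1 HS lay below its neighbour CR HS by 0.22, and among the PRDX1 means, by 0.35.

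**Figure D1:**
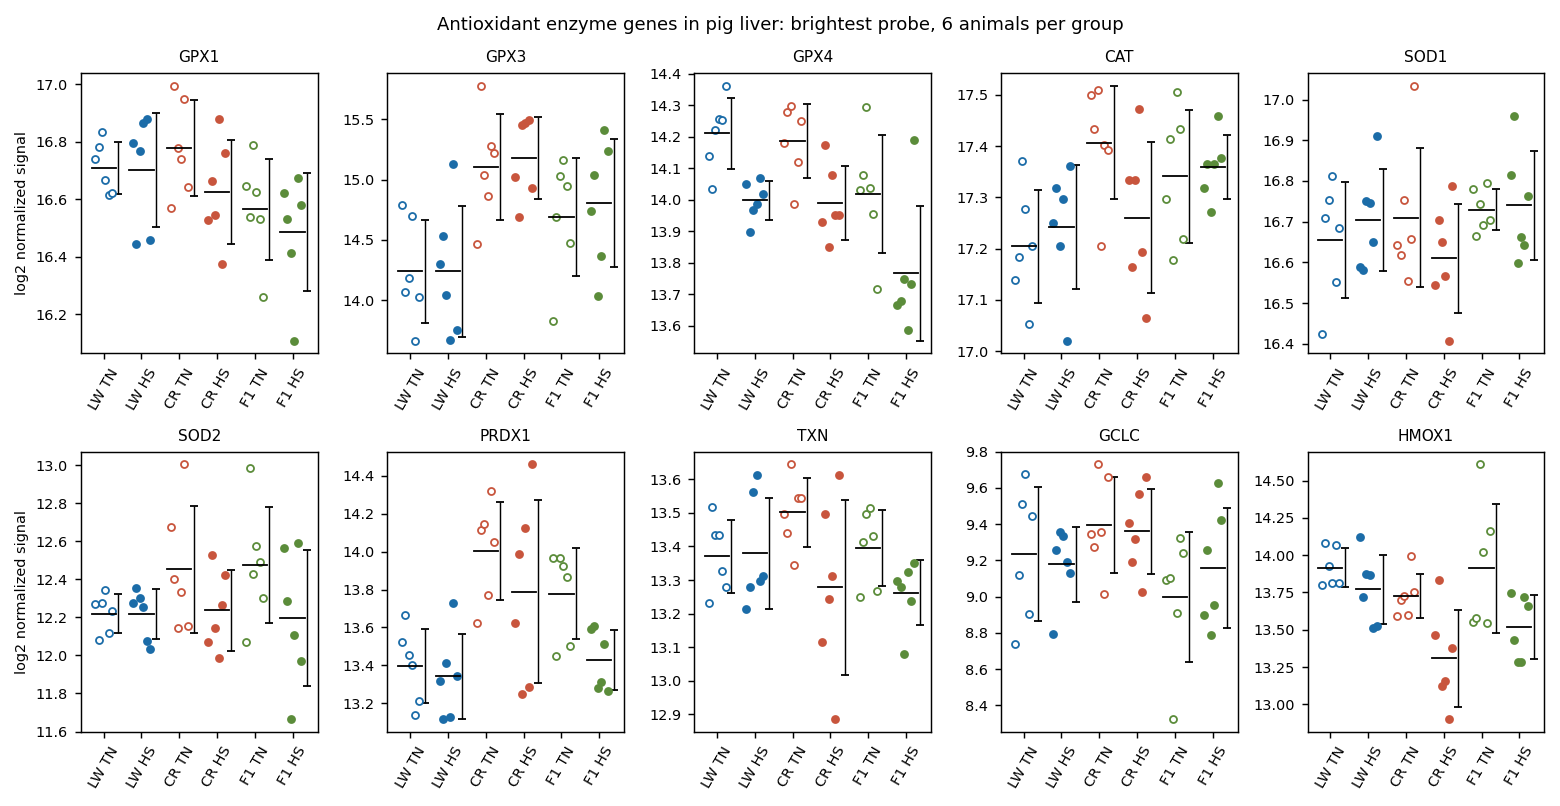
Log2 signal of the brightest probe of each of the 10 genes (vertical axis, log2 scale) in the 6 groups of 6 pigs (horizontal axis); open circles are TN pigs, filled circles HS pigs, black bars group means and error bars SDs. GPX3 and PRDX1 stand higher in CR than in LW, while the HS means of GPX4 and HMOX1 lie below the TN means of the same breed.

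Across the 3 breeds, GPX4 and HMOX1 signals fell in HS. Of the 53 probes, 3 passed the limma test at an adjusted p of 0.05 in HS against TN with breed in the model, all 3 lower in HS, where 0.857% of all kept probes passed (0.435% higher and 0.422% lower). These were GPX4 probes 1 and 3 and HMOX1 probe 2. The other 8 genes had no probe past the threshold. The log2 difference was negative for 37 of the 53 probes, with a median of -0.06 against 0.00 over all kept probes.

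GPX4, the lipid peroxide reductase (chr2:77321568-77323931, Sscrofa11.1), had on probe 1 a lowest, median and highest log2 signal of 13.72, 14.16 and 14.36 in the 18 TN pigs. In the 18 HS pigs these were 13.59, 13.95 and 14.19. The ranges overlapped, but 17 of 18 HS pigs lay below the TN mean of their own breed. The log2 difference of GPX4 probe 1 was -0.22 ± 0.05 (SE), or 1.17-fold lower in HS, with an adjusted p of 0.0218. GPX4 probe 3 gave -0.22 with an adjusted p of 0.0303. The remaining GPX4 probes 2, 4 and 5 had differences of -0.20, -0.17 and -0.20 with adjusted p of 0.0688, 0.225 and 0.0952, and on each of them 16 of 18 HS pigs were below the TN mean of their breed. The 5 GPX4 probes thus ranged from -0.22 to -0.17, and the test called 2 of them. Within slides the difference of probe 1, taken without regard to breed, was negative on 5 of 5, from -0.33 to -0.04. On slide 1 the TN pigs were LW and the HS pigs CR and F1, so breed and temperature cannot be told apart there.

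The call of GPX4 probe 1 held whichever array was left out, but not without slide 2 (adjusted p 0.120), slide 3 (0.152) or slide 4 (0.148), without a breed term (0.0620) or without the 5 arrays that lay apart (difference -0.18, 0.0747). The call of GPX4 probe 3 was lost without any 1 of the 5 slides, at adjusted p of 0.0569 to 0.197, and without F1 HS replicate 2 (0.0538), CR HS replicate 3 (0.0545) or F1 TN replicate 4 (0.0561). It was also lost with the processed signal (0.0595), without a breed term (0.103) and without the 5 arrays that lay apart (0.0755).

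HMOX1, the heme-degrading enzyme, had on probe 2 a lowest, median and highest log2 signal of 12.28, 12.60 and 13.41 in TN and 11.70, 12.26 and 12.95 in HS. The HS median lay below the lowest TN value, although the ranges overlapped, and 16 of 18 HS pigs were below the TN mean of their breed. The log2 difference of HMOX1 probe 2 was -0.41 ± 0.09 (SE), or 1.33-fold lower in HS, with an adjusted p of 0.0218. The other HMOX1 probes had differences of the same sign. That of probe 1 was -0.32 with an adjusted p of 0.0642, from values of 13.55 to 14.61 in TN and 12.90 to 14.12 in HS. Probes 3 and 4 had -0.26 and -0.28 with adjusted p of 0.517 and 0.246. The difference of probe 2, taken within slides without regard to breed, was negative on 5 of 5, from -0.71 to -0.01. Slide 1 again held LW pigs in TN against CR and F1 pigs in HS. The call of probe 2 held whichever array was left out. It was lost without slide 3 (adjusted p 0.110), slide 4 (difference -0.30, 0.186) or slide 5 (0.110). HMOX1 is prominent in macrophages, and of the 9 measured of 10 listed macrophage markers none passed the test in HS against TN. Their log2 differences ran from -0.18 (C1QC) to 0.09 (CD5L). Their summed linear signal was 99615 to 159752 in TN and 102114 to 155579 in HS, and MARCO was the listed marker that was not measured. The part of macrophages in the HMOX1 difference was not tested.

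**Figure D2:**
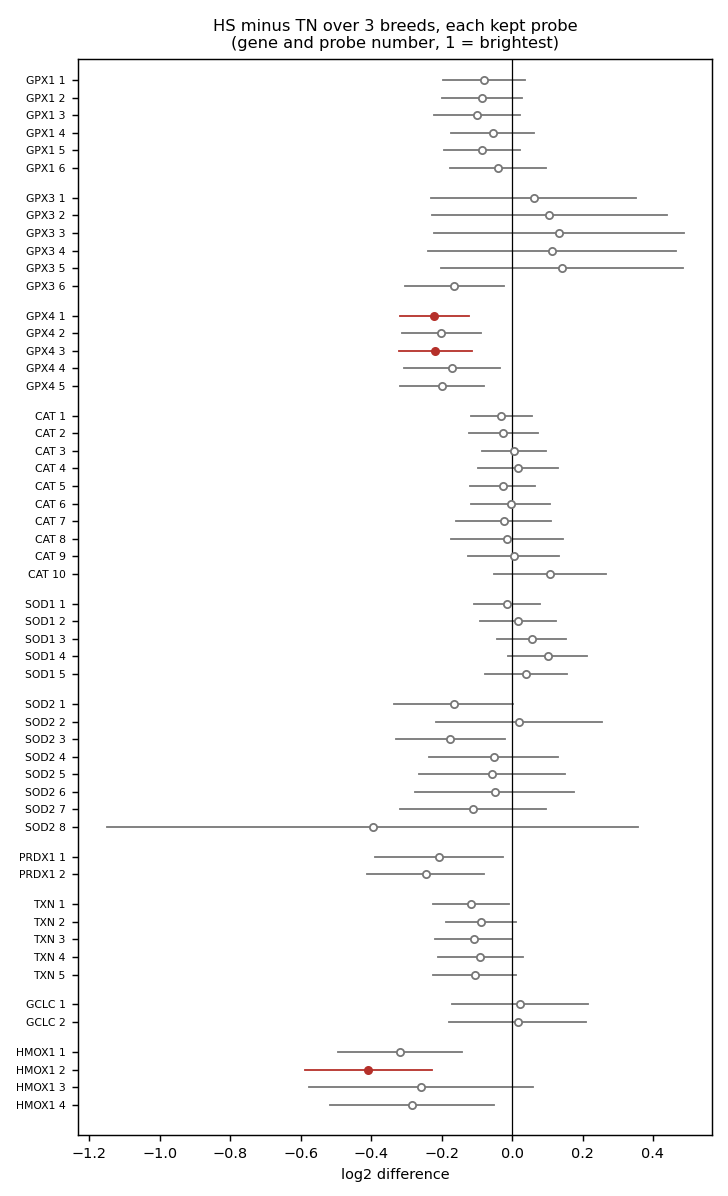
Log2 difference HS minus TN (horizontal axis) for each of the 53 probes, grouped by gene; points are estimates of the model with breed, lines their 95% intervals, and filled red points have an adjusted p under 0.05. The 5 GPX4 probes and the 4 HMOX1 probes all lie left of 0, whereas those of CAT, SOD1 and GCLC are centred near it.

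Among the enzymes that handle hydrogen peroxide, PRDX1 had the largest differences that did not pass. Its probe 1 ran from 13.14 through a median of 13.72 to 14.32 in TN and from 13.12 through 13.38 to 14.46 in HS. The ranges overlapped almost wholly while the medians differed. The log2 difference was -0.21 (adjusted p 0.292) on probe 1 and -0.25 (0.140) on probe 2, with 14 and 15 of 18 HS pigs below the TN mean of their breed. TXN, which keeps peroxiredoxins reduced, had negative differences on 5 of 5 probes, from -0.12 to -0.09, none with an adjusted p below 0.325. Of these, probes 2 and 3 have identical bases and probe 5 reads the opposite strand. The 6 GPX1 probes were likewise all negative, from -0.10 to -0.04, with adjusted p of 0.516 or more.

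CAT and SOD1 signals in HS lay close to those in TN. The 10 CAT probes had log2 differences of -0.03 to 0.11 and the 5 SOD1 probes of -0.01 to 0.10, and the 95% interval of the brightest CAT probe was -0.12 to 0.06 and that of the brightest SOD1 probe -0.11 to 0.08. GCLC had 0.02 on both probes, with intervals of -0.17 to 0.22 and -0.18 to 0.21. GPX3 probes 1 to 5 had differences of 0.06 to 0.14 and probe 6, the dimmest, -0.16, with adjusted p of 0.271 or more for all 6. The identical SOD2 probes 1 and 3 both had -0.17 (adjusted p 0.397 and 0.295), while the other SOD2 probes had -0.40 to 0.02. The widest interval was that of SOD2 probe 8, from -1.15 to 0.36, whose values are described with the breeds.

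Taken breed by breed, no probe of the 10 genes passed the test of HS against TN. The share of all kept probes that passed was 0% for LW pigs, 0% for CR and 0.00893% for F1 (0.00446% higher and 0.00446% lower), so that few calls were made anywhere in comparisons of 6 against 6 pigs. With limma at an unadjusted p under 0.05 there were 1, 8 and 12 member probes in LW, CR and F1, among 2289, 3315 and 4167 of all kept probes. A member had an adjusted p of 0.953 at the smallest for LW pigs, 0.424 for CR and 0.323 for F1. The number of member probes with a negative difference was 25 of 53 for LW, 43 for CR and 34 for F1, with overlapping probes counted separately. The median member difference was 0.01, -0.13 and -0.07 in that order, against 0.00 over all kept probes in each breed. The test of whether the breeds differed, given below, called no probe.

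GPX4 probe 1 had log2 differences of -0.21, -0.20 and -0.25 in LW, CR and F1. Over its 5 probes they ran from -0.28 to -0.17 in CR and from -0.30 to -0.25 in F1, but from -0.21 to 0.01 in LW, where probe 4 was the positive one. In LW, TN pigs ran from 14.03 to 14.36 and HS pigs from 13.90 to 14.07, and the ranges overlapped narrowly. In CR they ran from 13.99 to 14.30 and from 13.85 to 14.17. In F1 they ran from 13.72 to 14.29 and from 13.59 to 14.19, where the highest HS value belonged to a single pig. Without slide 5, GPX4 probes 1 and 2 passed within F1, probe 1 at a difference of -0.43 with an adjusted p of 0.0207. Slide 5 held the F1 pigs that ran most against the difference on probe 1. These were the highest HS pig (replicate 6, 14.19) and the lowest TN pig (replicate 6, 13.72).

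Other genes showed unlike values from breed to breed, none of which was shown to differ. The log2 difference of HMOX1 probe 1 was -0.15, -0.42 and -0.39 in LW, CR and F1 pigs. Over all HMOX1 probes it ran from -0.31 to 0.07 in LW, from -0.48 to -0.42 in CR and from -0.46 to -0.38 in F1. That of PRDX1 probe 1 was -0.06, -0.22 and -0.35 in the same order, and that of SOD2 probe 1 was 0.00, -0.22 and -0.28. TXN probe 1 had 0.01, -0.22 and -0.13. The test of whether the HS difference varied by breed (the interaction of breed and temperature, limma's moderated F test) called no probe, with 0% of all kept probes and a smallest adjusted p of 0.995 among the members. At an unadjusted p under 0.05 it found 0 member probes and 1677 of all kept probes.

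**Figure D3:**
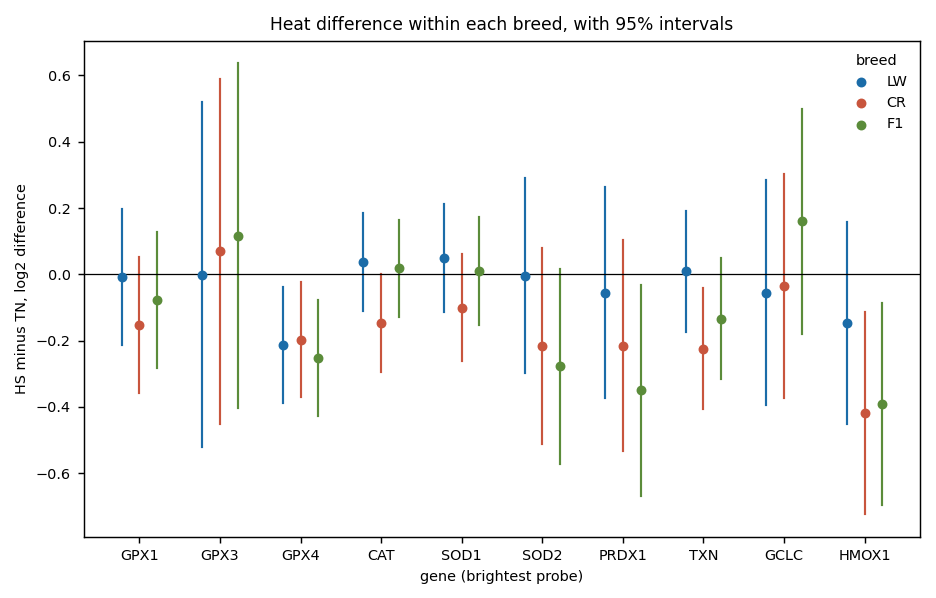
Log2 difference HS minus TN (vertical axis) of the brightest probe of each gene (horizontal axis) within LW, CR and F1 (6 HS against 6 TN pigs each), with lines for 95% intervals. GPX4 probe 1 lies below 0 in each breed, at -0.21, -0.20 and -0.25, and the intervals of the 3 breeds overlap for every gene.

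In CR against LW, 19 of 53 member probes from 6 genes passed, 14 higher and 5 lower in CR, where 26.5% of all kept probes passed (13.6% higher and 12.9% lower). GPX3 and PRDX1 rose in CR on every probe, HMOX1 fell on every probe, and SOD2 was split among its probes. CAT probe 9 and TXN probe 5 were also higher, whereas GPX1, GPX4, SOD1 and GCLC had no probe called.

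GPX3, the secreted peroxidase (chr16:71980467-71989011), had on probe 1 a lowest, median and highest log2 signal of 13.66, 14.13 and 15.13 in LW and 14.47, 15.13 and 15.78 in CR. Of the CR pigs 12 of 12 lay above the LW mean, and the CR median was close to the highest LW value. The log2 difference of GPX3 probe 1 was 0.90 ± 0.18 (SE), or 1.87-fold higher in CR, with an adjusted p of 0.000298. GPX3 probes 2, 3, 4 and 5 had differences of 0.79, 0.77, 0.80 and 0.65 and the dimmest, probe 6, had 0.24 with an adjusted p of 0.0304. Probes 2, 3 and 4 share 46 to 56 bases with one another and count as a single target. Within slides the difference of probe 1, taken without regard to temperature, was positive on 5 of 5, from 0.60 to 1.33. Slide 1 set 1 CR pig in HS against 2 LW pigs in TN. Without slide 5 the calls of probes 3, 5 and 6 were lost (adjusted p 0.0635, 0.131 and 0.232), and without slide 4 those of probes 5 and 6 (0.0778 and 0.104), and 7 of the 36 single arrays, when left out, took the adjusted p of probe 6 above the threshold, to 0.0641 at most.

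PRDX1 (chr6:165847390-165859918) had on probe 1 a lowest, median and highest log2 signal of 13.12, 13.37 and 13.73 in LW and 13.25, 14.02 and 14.46 in CR. The CR median was above every LW pig, and 10 of 12 CR pigs were above the LW mean. The log2 difference was 0.53 ± 0.11 (SE), or 1.44-fold, with an adjusted p of 0.00061. Its overlapping probe 2 gave 0.44 with an adjusted p of 0.00143. Both calls held without any single array.

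HMOX1 was lower in CR than in LW on 4 of 4 probes, but by very different amounts. The log2 difference was -0.32 (adjusted p 0.021) on probe 1 and -0.29 (0.0456) on probe 2. It was -1.03 ± 0.19 (SE) on probe 3, or 2.05-fold lower, with an adjusted p of 0.000174, and -0.60 (0.00175) on probe 4. On probe 3 the lowest, median and highest log2 signals were 9.18, 9.86 and 10.47 in LW and 8.0, 8.63 and 9.49 in CR, so that 12 of 12 CR pigs were below the LW mean with a small overlap. Probe 3 starts at base 237 of its listed transcript, while probes 1 and 2 start at bases 1492 and 1291 of theirs. Without the 2 LW arrays or the 5 arrays that lay apart it was -1.19 in both cases. The calls of probes 1 and 2 were weaker: that of probe 1 was lost without slide 3 (0.139) or slide 5 (0.0525), and that of probe 2 without slide 3 (0.180), 4 (0.0668) or 5 (0.127) or without any of 14 single arrays, at an adjusted p of up to 0.0977. That of probe 2 was also lost with normexp background correction (0.0576) and with no filter on dim probes (0.0586).

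Markers of other liver cells moved in the same comparison. Of 9 measured macrophage markers 7 were lower in CR and none higher, with CD163, a scavenger receptor of macrophages, at a log2 difference of -1.16. The summed linear signal of the macrophage list was 133482 to 159752 in LW and 99615 to 138360 in CR. Of 7 measured endothelial markers 6 were lower in CR, with sums of 25641 to 37995 in LW and 18776 to 28313 in CR, and of 8 lymphocyte markers 4 were lower. Of 7 hepatocyte markers APOA1 (-0.12) and FGB (-0.20) were lower, of 8 stellate cell markers RGS5 (-0.79) was lower, and of 5 cholangiocyte markers KRT7 (0.74) was higher. The part of these cells in the HMOX1 difference and in those of the other members was not tested.

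CAT and TXN each had a single probe higher in CR. For CAT, the peroxisomal enzyme, probe 9 ran from 13.91 through 14.28 to 14.40 in LW and from 14.02 through 14.64 to 14.82 in CR. Its log2 difference was 0.33 with an adjusted p of 0.00183, and 11 of 12 CR pigs were above the LW mean. The other 9 CAT probes had differences of -0.02 to 0.17 and did not pass. The TXN probe called was probe 5, which reads the opposite strand (0.21, adjusted p 0.0264), while the 4 sense probes had 0.02 to 0.09. The TXN call was lost without slide 3 (0.167) or slide 4 (0.0562), without the 2 LW arrays (0.0740) or the 5 arrays (0.0702) that lay apart, and without CR TN replicates 1 or 3 or CR HS replicates 2 or 4, left out singly.

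**Figure D4:**
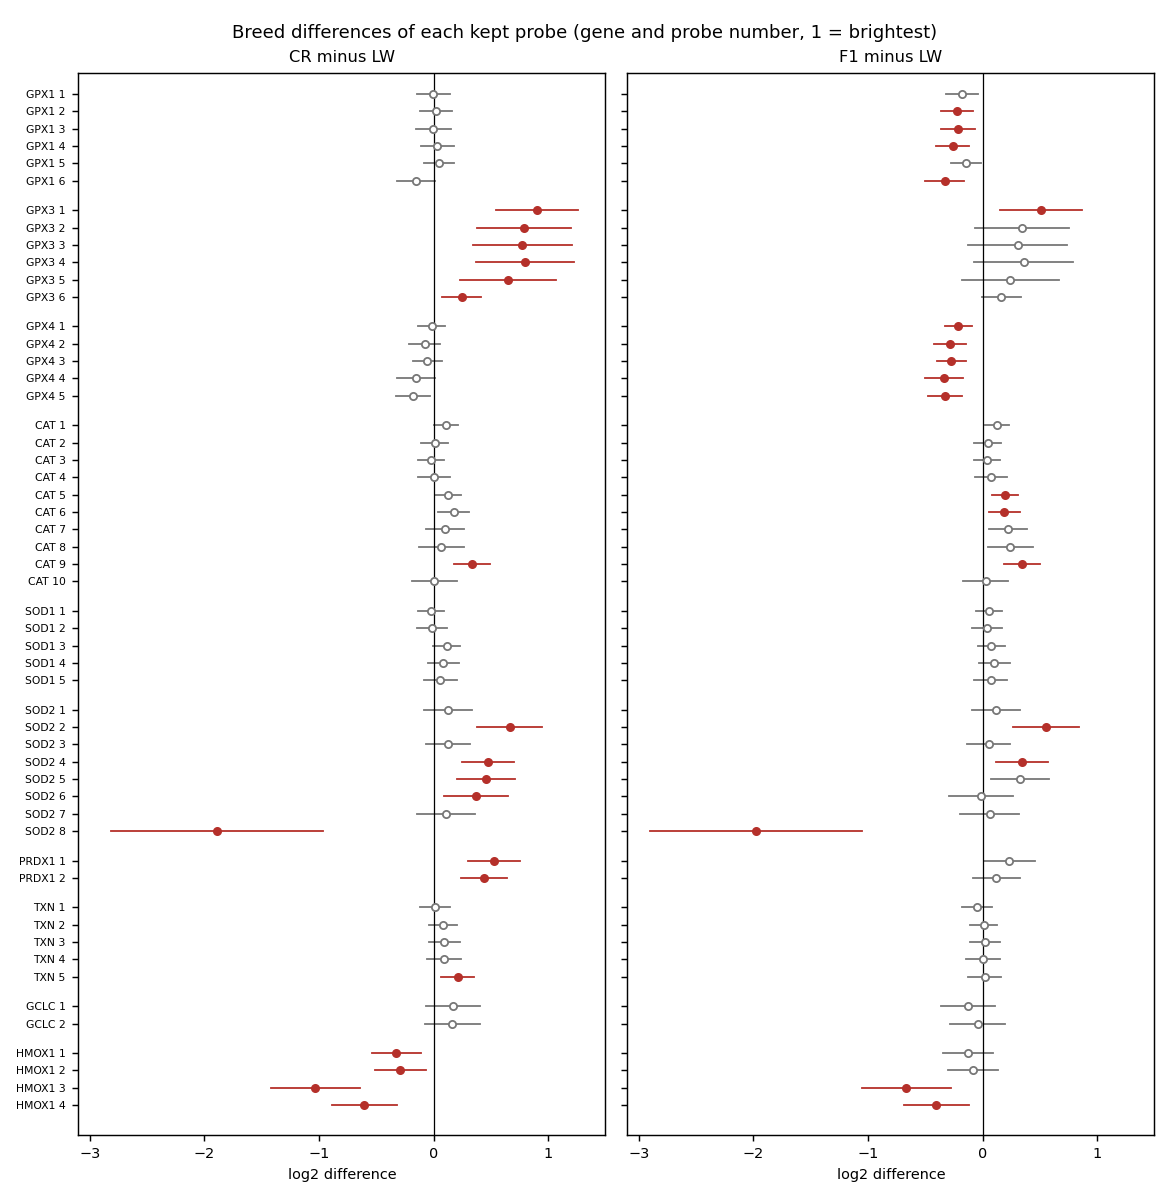
Log2 differences CR minus LW and F1 minus LW (horizontal axes) for each of the 53 probes, grouped by gene; lines are 95% intervals and filled red points have an adjusted p under 0.05. GPX3, PRDX1 and most SOD2 probes lie right of 0 in CR and the HMOX1 probes left of 0, while the GPX1 and GPX4 probes lie left of 0 in F1.

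SOD2, the mitochondrial dismutase (chr1:7679352-7689564), gave a breed difference whose size and sign depended on the probe. SOD2 probe 2 had a lowest, median and highest log2 signal of 11.16, 11.90 and 12.57 in LW and 11.89, 12.38 and 12.87 in CR, with 12 of 12 CR pigs above the LW mean. Its log2 difference was 0.66 ± 0.14 (SE), or 1.58-fold higher in CR, with an adjusted p of 0.00076. Probes 4, 5 and 6 were also higher, by 0.47, 0.46 and 0.37. The adjusted p of probe 6 was 0.0405, and its call was lost when any 1 of 12 single arrays was left out (up to 0.0740) or any 1 of the 5 slides (0.0524 to 0.137). It was also lost with the processed signal (0.0590), in the authors' log2 values (0.0726) and with no filter on dim probes (0.0525).

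The SOD2 probes 1 and 3, which have identical bases, did not pass. Both had a log2 difference of 0.13, with 95% intervals of -0.08 to 0.33 and -0.06 to 0.31. Probe 5 shares 51 bases with them, with 1 mismatch and 1 gap, and had 0.46. In probe 1 the lowest, median and highest log2 signals were 12.03, 12.26 and 12.35 in LW and 11.98, 12.30 and 13.00 in CR, so that the LW pigs lay within a narrower band. Probe 7 had a difference of 0.11 and did not pass.

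The signal of SOD2 probe 8 went the other way and fell in CR, by -1.89 ± 0.45 (SE) on the log2 scale, or 3.71-fold, with an adjusted p of 0.00226. Whether the pigs differed in sequence under this probe could not be examined here. The values of probe 8 fell into separate sets: none of the 36 arrays lay between 7.24 and 8.33, 17 lay above that gap and 19 below it. The gap was chosen after the values were seen and carries no test. Of the LW pigs 11 lay above it and 1 below, of the CR pigs 3 above and 9 below, and of the F1 pigs 3 above and 9 below. The lone LW pig below was TN replicate 1, one of the LW arrays that lay apart. By temperature, 5 of 6 LW TN and 6 of 6 LW HS pigs lay above the gap, against 2 of 6 TN and 1 of 6 HS pigs in CR and the same numbers in F1. Within slides the CR minus LW difference, taken without regard to temperature, was negative on 5 of 5, from -2.96 to -1.0. Slide 1 set 1 CR pig in HS against 2 LW pigs in TN. In the limma fit the CR minus LW difference was -1.56 with an adjusted p of 0.0507 without slide 3. It was -2.27 both without the 2 LW arrays and without the 5 arrays that lay apart.

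**Figure D5:**
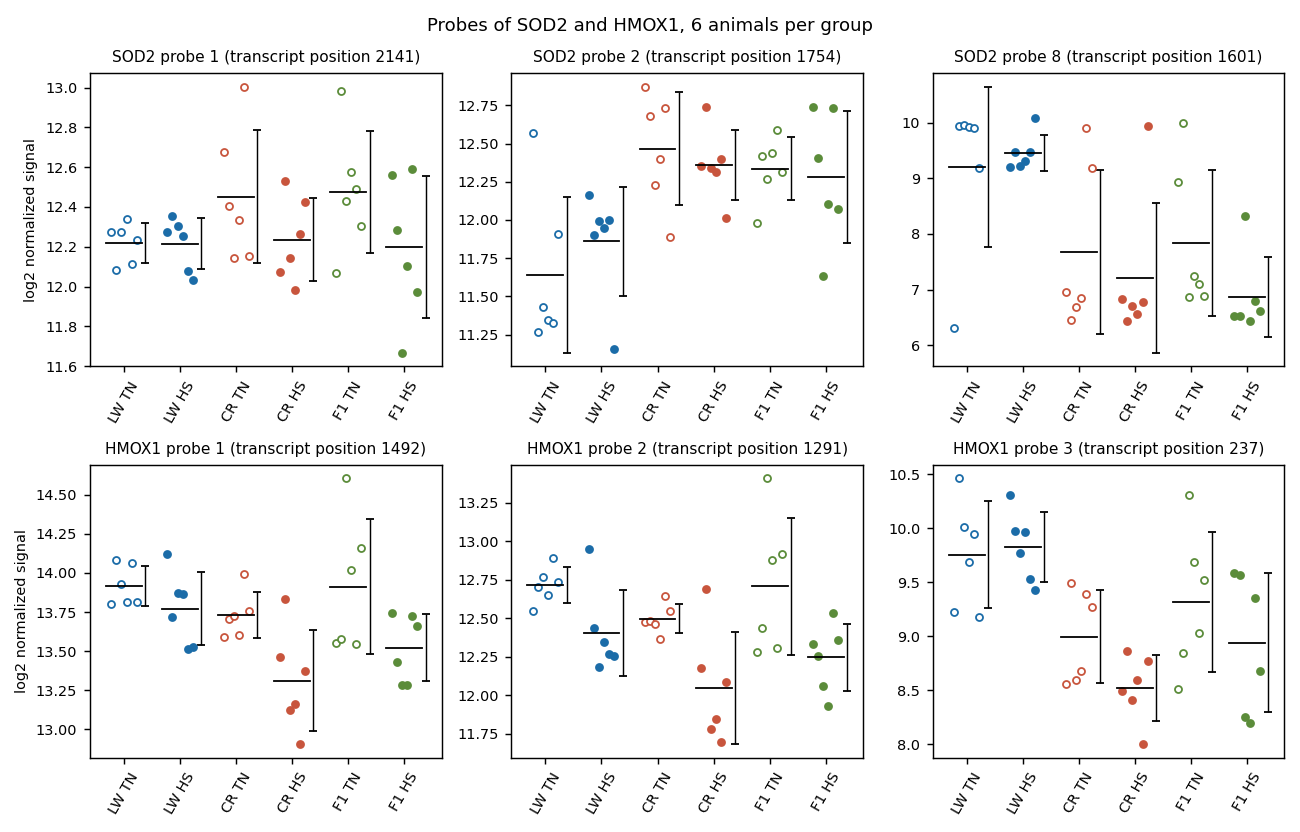
Log2 signal (vertical axes) of SOD2 probes 1, 2 and 8 and HMOX1 probes 1, 2 and 3 in the 6 groups of 6 pigs (horizontal axes), with the start of each probe in its listed transcript; open circles are TN pigs, filled circles HS pigs, black bars means and error bars SDs. SOD2 probe 8 shows values on either side of an empty stretch between 7.24 and 8.33, with 11 of 12 LW pigs in the upper set and 9 of 12 in each of CR and F1 in the lower.

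In F1 against LW, 18 of 53 member probes from 6 genes passed, 6 higher and 12 lower in F1, where 18.3% of all kept probes passed (9.13% higher and 9.22% lower). GPX4 fell on 5 of 5 probes and GPX1 on 4 of 6. The other genes called, GPX3, CAT, SOD2 and HMOX1, also had probes called in CR against LW, where GPX1 and GPX4 had none. Whether CR and F1 differed in these genes is given by F1 against CR, in which 0 of 5 GPX4 and 1 of 6 GPX1 probes passed. The comparisons with LW share the LW pigs, so that their values are set side by side and not correlated.

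GPX4 probe 1 had a lowest, median and highest log2 signal of 13.90, 14.06 and 14.36 in LW, 13.85, 14.10 and 14.30 in CR and 13.59, 13.85 and 14.29 in F1. The F1 median lay below every LW pig and 10 of 12 F1 pigs were below the LW mean. The F1 minus LW log2 difference was -0.21 ± 0.06 (SE) on probe 1, with an adjusted p of 0.0125, and -0.28, -0.27, -0.34 and -0.33 on probes 2 to 5. In CR minus LW the same 5 probes had -0.02, -0.08, -0.06, -0.15 and -0.18. On probe 5 the latter had an adjusted p of 0.061 and passed in 5 of 9 other fits, among them the authors' log2 values (0.0197), in 6 of 36 fits without a single array, and without the 2 LW arrays (0.0245) or the 5 arrays (0.0189) that lay apart. Probe 4 passed in the last pair of fits as well (0.0287 and 0.0221). In F1 against LW the calls of GPX4 probes 1, 2, 4 and 5 were lost without slide 3 (adjusted p 0.0502 to 0.0789) and that of probe 1 also without slide 2 (0.0823), while probe 3 stayed called without any 1 slide.

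GPX1, the cytosolic peroxidase (chr13:31916269-31917337), had on probe 4 a lowest, median and highest log2 signal of 15.03, 15.15 and 15.28 in LW, 14.98, 15.16 and 15.44 in CR and 14.40, 14.91 and 15.22 in F1. Most F1 pigs were low, with 11 of 12 below the LW mean, while LW and CR had almost the same median. The F1 minus LW log2 difference was -0.26 ± 0.07 (SE) with an adjusted p of 0.0109. GPX1 probes 2, 3 and 6 also fell, by 0.22, 0.22 and 0.33 on the log2 scale, and probes 1 and 5 had -0.18 (adjusted p 0.0698) and -0.15 (0.115). On probe 2, 12 of 12 F1 pigs were below the LW mean. Probes 1 and 2 share 48 bases and probes 3 and 5 share 43. The calls of GPX1 probes 2, 3, 4 and 6 in F1 against LW were all lost without slide 3 (adjusted p 0.0955 to 0.265), and those of probes 2, 3 and 4 without slide 2 (0.0846 to 0.201). That of probe 2 was also lost without slide 4 (0.0540) or 5 (0.0525), and that of probe 3 without any of 13 single arrays.

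GPX1 and GPX4 were also the members that passed when F1 was set against both parents. Against the mid-parent value, the mean of LW and CR, 5 of 53 member probes passed, all lower in F1, where 1.13% of all kept probes passed (0.464% higher and 0.661% lower). These were GPX1 probes 2 (-0.23, adjusted p 0.0424) and 4 (-0.27, 0.0173) and GPX4 probes 1 (-0.20, 0.0381), 2 (-0.24, 0.0289) and 3 (-0.24, 0.0166). On GPX1 probe 4, 11 of 12 F1 pigs were below the mid-parent value, and on GPX4 probe 3, 10 of 12. None of the 5 calls held without slide 2 or without slide 3. That of GPX1 probe 2 was also lost without any of 18 single arrays (adjusted p up to 0.110), with the processed signal (0.0911), with normexp (0.0539), in the authors' log2 values (0.0621) and with no filter on dim probes (0.0511). GPX1 probe 4 lost its call with the processed signal (0.0749) and in the authors' log2 values (0.0532). GPX4 probe 3 lost its call with the processed signal (0.0518) too. Without slide 5 the calls of GPX1 probe 2 (0.0928) and GPX4 probes 1 (0.0737), 2 (0.0757) and 3 (0.0518) were lost. Without slide 4 those of GPX1 probe 2 (0.112) and GPX4 probe 1 (0.0904) were lost. That of GPX4 probe 1 was lost without any of 14 single arrays (up to 0.0993) and that of GPX4 probe 2 without any of 4 (up to 0.0843). Without the 2 LW arrays that lay apart 8 probes passed, and without the 5 arrays 13. In F1 against CR, 1 of 53 member probes passed, where 1.5% of all kept probes passed: GPX1 probe 4 was lower by -0.29 with an adjusted p of 0.0258. That call was lost without slide 2 (0.201), 3 (0.187) or 5 (0.0625), with the processed signal (0.198) and in the authors' log2 table (0.155).

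The remaining F1 calls were in SOD2, HMOX1, CAT and GPX3. SOD2 probes 2 and 4 were higher in F1 than in LW, by 0.56 (adjusted p 0.0068) and 0.35 (0.0268), and SOD2 probe 8 was lower, by -1.98 (0.00345). HMOX1 probes 3 and 4 were lower, by -0.66 (0.0153) and -0.40 (0.0423), whereas HMOX1 probes 1 and 2 had -0.13 and -0.08 and did not pass. Without slide 3 none of these calls held except that of SOD2 probe 8, and the HMOX1 calls were lost without slide 2 (0.115 and 0.276), that of probe 4 also without slide 5 (0.0727) or any of 13 single arrays. Those of SOD2 probes 2 and 4 were lost without slide 4 (0.0560 and 0.125), and that of probe 4 without slide 5 (0.0940) or any of 3 single arrays. CAT probes 5, 6 and 9 were higher, by 0.20, 0.19 and 0.35, the last with an adjusted p of 0.00309 and 12 of 12 F1 pigs above the LW mean. The 3 CAT calls were lost without slide 4 (0.0552 to 0.274), those of probes 5 and 6 without slide 3 (0.0659 and 0.185), and that of probe 6 without slide 1 (0.0856) or 2 (0.0541) or any of 16 single arrays. GPX3 probe 1 was higher by 0.51 with an adjusted p of 0.0402, a call lost without slides 3, 4 or 5 (0.0919, 0.255 and 0.221), without the 5 arrays that lay apart (0.0642) or without any of 15 single arrays. Lost with the processed signal were GPX3 probe 1 (0.0782), CAT probe 6 (0.0747), SOD2 probe 4 (0.0633) and HMOX1 probe 4 (0.0536). In the authors' log2 values GPX3 probe 1 (0.0801) and CAT probes 5 (0.0652) and 6 (0.124) were lost. With no filter on dim probes GPX3 probe 1 (0.0522), CAT probe 6 (0.0559) and HMOX1 probe 4 (0.0548) were lost. PRDX1, SOD1, TXN and GCLC had no probe called, with 0.23 (0.137) on PRDX1 probe 1. The macrophage list had 7 of 9 markers lower in F1 than in LW, with sums of 102114 to 155579 in F1, and the endothelial list 4 of 7. Their part in these differences was not tested.

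Other genes of the same pathways were examined from lists of enzymes of glutathione and thioredoxin metabolism, NADPH supply, heme and iron handling, selenoproteins and oxidant sources, 82 of 95 of which were measured. In HS against TN, 0 were higher and 2 lower. BLVRB, biliverdin reductase B, ran from 13.91 through 14.36 to 14.77 in TN and from 13.77 through 14.12 to 14.56 in HS, a log2 difference of -0.28 with an adjusted p of 0.0372. ME1, malic enzyme, a source of NADPH, ran from 6.59 through 7.63 to 8.37 in TN and from 6.30 through 7.11 to 7.80 in HS, with -0.53 and 0.0493. Both sets of ranges overlapped. For ME1, 1 of 3 probes passed, and for BLVRB 2 of 2.

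In CR against LW, 16 of the 82 genes were higher and 15 lower, with a median difference of 0.00, beside 13.6% of all kept probes higher and 12.9% lower. The higher ones included GSR, glutathione reductase, at 0.62 (adjusted p 0.000501), with 7.91, 8.80 and 9.03 as lowest, median and highest log2 signal in LW and 8.97, 9.32 and 9.64 in CR, and NQO1, a quinone reductase, at 0.58 (0.0171). GLRX, glutaredoxin, was lower at -0.59 (0.000288), and so were GPX8 at -0.59 (0.000801) and NCF4, a subunit of the phagocyte NADPH oxidase, at -0.60 (4.98e-05). In F1 against LW, 7 were higher and 13 lower, beside 9.13% and 9.22% of all kept probes.

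After group means were removed, the brightest probes of the 10 genes were compared in 45 pairs over the 36 pigs, of which 2 passed a permutation test after adjustment. GPX1 and PRDX1 varied together with a Pearson r of 0.64 and a Spearman rho of 0.69 (permutation p 5e-05, adjusted p 0.00225), and r was 0.66 without the 2 arrays farthest from the median. SOD1 and TXN had 0.56 and 0.61 (adjusted permutation p 0.0146), and 0.64 without 2 arrays. The arrays share a normalisation, and with the processed signal 14 pairs passed and 12 in the authors' log2 values. Among 11960 gene symbols, the gene whose residual signal was most like that of a member was ATP5B for GPX1 (r 0.81), SULT1A3 for GPX3 (0.74), HRSP12 for CAT (0.68), MCM6 for SOD1 (0.78), LGALS3 for SOD2 (0.68), C20ORF24 for PRDX1 (0.79), EIF2S2 for TXN (0.73), RFFL for GCLC (0.76) and UFSP2 for HMOX1 (0.67), each over 36 arrays and with no test.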

How the data were processed

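The authors scanned each array with Agilent Feature Extraction 10.10.1.1 and deposited its output, in which each spot has an intensity, here the median pixel intensity, a local background and quality flags. Control spots were left out, 107 non-uniform spots were set to missing, and log2 intensities of 60306 spots were quantile normalised (the study normalised before taking log2). The authors also deposited a log2 table of the same arrays, with 42051 probes and array medians of 7.656 to 7.659, which was used as an alternative only.

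A probe was kept where at least 6 of the 36 arrays had it well above background (44796 of 60305, 74.3%). Probes were named from the array files through current gene symbols, which gave 23905 kept probes 1 of 11970 symbols. Further probes described as only similar to catalase or thioredoxin were not counted. The brightest kept probe of a gene represented it where 1 value was needed, and all kept probes of the 10 genes were named. In R 4.3.3, limma 3.58.1 (lmFit and eBayes) fitted breed and temperature for HS minus TN, the breed differences and F1 minus mid-parent, and the means of 6 groups for HS minus TN within a breed and for the interaction. Benjamini-Hochberg adjustment ran over the 44796 probes, with a threshold of 0.05. Correlations used 100000 permutations. No spot of the members was saturated, and the number of arrays limits the precision. On simulated data of 44796 probes with 200 changed, a log2 change of 0.5 was recovered for 88.5% of probes in HS minus TN and for 80.0% in CR minus LW.

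The members and gene lists were chosen with earlier results of these data known. Groups came from the sample labels. Pigs were taken as replicates, although litters, pens, sires and dams, which the study modelled, were not in the labels and could not be modelled here. Alternatives covered the signal column, background correction, the authors' table, filters, slide as a block, array weights, spread, 1 value per gene, a model without breed, and leaving out each array or slide. Leaving out the arrays that lay apart was chosen after seeing the data.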

Additional observations from a re-analysis of the deposited data

Results flagged for a closer look

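Of 60 checks, 1 for each gene in each group of 6 pigs, 1 found a pig far from the rest, where chance gives about 3. In the F1 HS group, replicate 6 had the highest GPX4 probe 1 signal, 14.19 on the log2 scale against 13.75 for the next pig, and this gap made up 0.732 of the range of the group.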

How the results depend on the processing

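Numbers of member probes that passed were recomputed under each alternative. For HS against TN the 3 calls became 1 of 10 genes with 1 value per gene, 1 with no breed term, 1 when slide 2 or slide 5 was left out, 0 when slide 3 or slide 4 was, and 1 without the 5 arrays that lay apart, and leaving out single arrays gave 2 to 4. Within F1, 2 probes passed without slide 5. For CR against LW the 19 calls became 3 of 10 genes with 1 value per gene, and single arrays gave 16 to 21. For F1 against LW the 18 calls became 2 with 1 value per gene, 3 without slide 3 and 11 without slide 4, and single arrays gave 13 to 20. For F1 against CR the 1 call became 0 with the processed signal, 2 with normexp, 0 in the authors' table, 3 with slide as a fixed block, 3 as a random block, 0 with 1 value per gene, 0 without slides 2, 3 or 5 and 2 without the 5 arrays, and single arrays gave 0 to 3. For F1 against the mid-parent the 5 calls became 2 with the processed signal, 3 in the authors' table, 9 with array weights, 2 with 1 value per gene, 8 without slide 1, 0 without slide 2 or slide 3, 1 without slide 5, 8 without the 2 LW arrays and 13 without the 5 arrays, and single arrays gave 2 to 9. The correlated pairs went from 2 to 14 with the processed signal and 12 in the authors' table. Leaving out a slide also means fewer pigs; otherwise the cause was not tested. Over 2660 recomputed values of the brightest probes, 2592 stayed on their side of the threshold, 50 lost it, 18 gained it and 0 called values reversed.

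No paired analysis was possible because each pig was sampled at a single temperature and the labels do not name the litters. Differences of the size seen for GPX4 are smaller than those the simulation tested.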
